A study of Mus musculus with 9 samples.

Results

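The 38 genes described here are antiviral interferon-stimulated genes, chosen by name as a module of sensors, effectors and regulators of the antiviral state. They are 38 of the 49671 genes in the count table, every symbol matched 1 Ensembl gene, and all 38 were among the 18374 genes abundant enough to test. RNA was sequenced from CD3+ T cells taken from the spleens of female F1 mus x cast mice, whose mothers were C57BL/6 carrying a heterozygous Xist deletion and whose fathers were castaneus, a cross used for its skewed X inactivation. All libraries share this cross, the spleen as source and enrichment of the cells on CD3+ T cell columns, and the age of the mice is not given in the sources used here. Inhibitor cells spent 48 hours in culture with anti-CD3 bound to the plate (1 µg/ml), anti-CD28 in solution (10 µg/ml) and IMD-0354 (2.5 µM), an inhibitor of IKK-beta, the kinase that activates NF-kB. Stimulated cells had the same antibodies and time without IMD-0354, and unstimulated cells went straight into TRIzol after enrichment. No vehicle for the stimulated cultures is named in the labels, so the inhibitor and any vehicle given with it cannot be told apart. No cells cultured without antibodies are named either, so culture and stimulation cannot be told apart. Each group has 3 libraries, called biological replicates in the labels. Nothing says that they came from separate animals, so the p-values measure the spread between these libraries, which may in part be technical.

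Interferon-stimulated genes are switched on when type I or type III interferon binds its receptor and the kinases JAK1 and TYK2 activate a complex that holds STAT2 and IRF9 and binds the interferon-stimulated response element (ISRE) in promoters. Type II interferon, made by T cells and NK cells, acts mainly at the gamma-activated site (GAS). The products find viral RNA or DNA, block translation, entry, replication or budding of viruses, or tune the response itself, and resting lymphocytes keep many of them at a low tonic level.

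Promoter sequences of RefSeq (mouse build GRCm38.p6, from 250 bases before to 50 after the annotated start) were found for 28 of the 38 genes. The ISRE core was searched as GAAA, any 2 bases and GAAA again, on both strands, with overlapping matches allowed. It was present in 13 of the 28 (46.4%), against 3.99% of the 27025 genes in the promoter table and 3.44% of its 32851 windows of 300 bases. The GAS core TTCNNNGAA was in 9 of the 28 (32.1%, against 9.55% of all genes) and the kappaB consensus of NF-kB in 2 (7.14%, against 5.14%). A match describes letters in the window and not a bound site. The stretches below are shown because 5 of the genes with the largest changes of their role class carry the core (Ddx58, Ifit1, Ifitm3, Oas3 and Rsad2), because Isg15 and Bst2 carry it in overlapping copies, and because Ifit3 and Ifit3b are near-copies of each other. Those last 4 were chosen after their values were seen. Each runs 5′ to 3′ on the strand of its gene, with capitals marking the core or its reverse complement and 20 bases on either side.
Ddx58, chr4:40239794-40239843, minus strand: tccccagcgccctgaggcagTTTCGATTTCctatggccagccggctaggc
Ifit1, chr19:34640765-34640833, plus strand: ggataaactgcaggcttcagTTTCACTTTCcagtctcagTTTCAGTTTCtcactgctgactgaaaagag
Ifit3, chr19:34583353-34583436, plus strand: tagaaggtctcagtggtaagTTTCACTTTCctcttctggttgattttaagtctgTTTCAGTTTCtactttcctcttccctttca
Ifit3b, chr19:34607749-34607832, plus strand: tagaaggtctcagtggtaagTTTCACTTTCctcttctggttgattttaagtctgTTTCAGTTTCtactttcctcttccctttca
Oas3, chr5:120777705-120777754, minus strand: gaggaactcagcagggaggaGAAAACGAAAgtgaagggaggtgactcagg
Ifitm3, chr7:141010696-141010762, minus strand: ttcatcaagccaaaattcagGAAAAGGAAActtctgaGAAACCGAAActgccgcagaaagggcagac
Bst2, chr8:71537567-71537622, minus strand: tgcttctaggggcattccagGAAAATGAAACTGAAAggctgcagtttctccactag
Rsad2, chr12:26456543-26456592, minus strand: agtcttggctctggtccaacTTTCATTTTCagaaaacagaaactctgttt
Isg15, chr4:156200855-156200916, minus strand: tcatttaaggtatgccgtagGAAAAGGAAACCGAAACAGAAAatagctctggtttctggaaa
The 84 bases of Ifit3 and Ifit3b had 0 mismatches. The match began 104 bases before the start of Ifit1, 75 before that of Oas3, 120 before that of Rsad2, 130 before that of Bst2 and 78 before that of Isg15, whereas in Ddx58 and Ifitm3 it lay just after the start.

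The 3 groups differed widely across the whole table. Total counts per library ranged from 34009988 to 56221174, and inhibitor library 1 stood apart with 30106 genes that had a count, against 20547 to 23223 genes elsewhere. T cell markers (12 genes) were at a summed 2562 to 2672 CPM (library-scaled counts, adjusted by TMM) in inhibitor libraries, 2688 to 2876 in stimulated and 2056 to 3165 in unstimulated libraries. Markers of other cells were higher in unstimulated libraries. Myeloid markers (22 genes) summed to 107 to 144 CPM in inhibitor, 65.8 to 72.3 in stimulated and 1388 to 2704 in unstimulated libraries. Of the 22, 21 were lower in stimulated than in unstimulated cells, against 34.0% of all genes tested. Neutrophil markers (11 genes) summed to 0.806 to 1.40, 0.951 to 1.04 and 435 to 2360 CPM in the same order of groups, and B cell markers (15 genes) to 165 to 169, 86.2 to 94.5 and 1049 to 3078 CPM. Markers of plasmacytoid dendritic cells, the strongest producers of type I interferon (8 genes), summed to 78.8 to 85.6, 37.1 to 41.7 and 256 to 302 CPM, and NK cell markers (11 genes) to 70.9 to 89.9, 221 to 346 and 566 to 698 CPM. No count in any stimulated library was found for Spic, C1qa, C1qb, C1qc, Ngp, Mmp8 or Siglech. In these bulk libraries fewer cells of a type and less RNA per cell cannot be told apart, and the part of these other cells in the results below was not tested. Whether T cells themselves make some of these markers, such as Gzma, Prf1, Eomes and Klrk1 of the NK cell list, was not tested either.

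**Figure D1:**
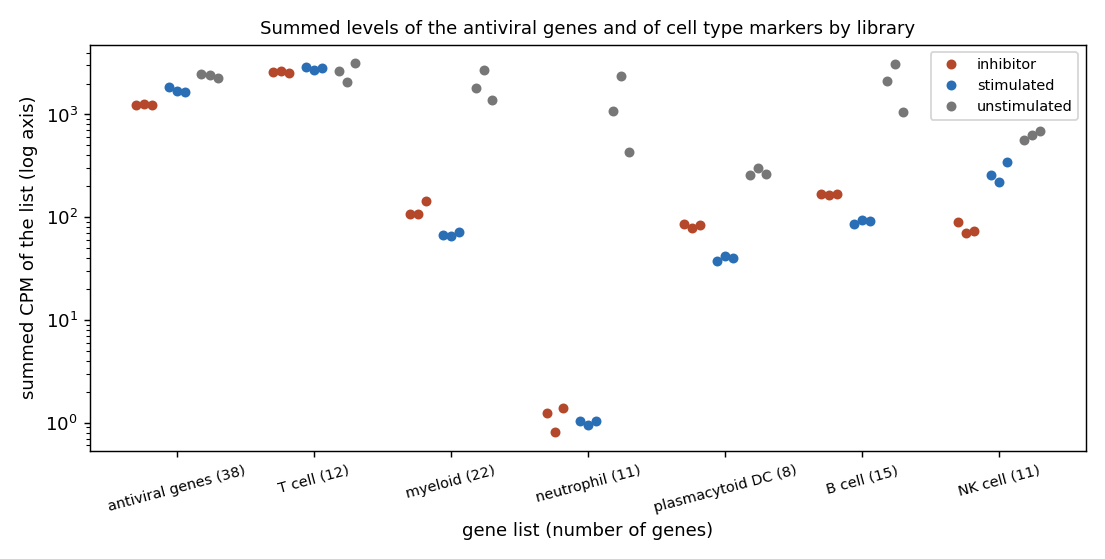
Summed level (CPM, logarithmic axis) of the 38 antiviral genes and of 6 lists of cell type markers in each library, with inhibitor, stimulated and unstimulated libraries from left to right within a list and the number of genes in brackets. Antiviral genes sum to 1228 to 1259 CPM in inhibitor, 1641 to 1865 in stimulated and 2284 to 2474 in unstimulated libraries, and neutrophil markers are near 1 CPM in all cultured libraries.

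Most of the antiviral genes were lower in stimulated than in freshly isolated cells. A change with stimulation is given as stimulated against unstimulated cells, and a change with the inhibitor as inhibitor against stimulated cells. In edgeR's quasi-likelihood test, 23 of the 38 fell and 6 rose at a Benjamini-Hochberg adjusted p below 0.05 over all genes tested, against 34.0% of all genes that fell and 32.0% that rose. The 6 that rose were Oas3, Eif2ak2, Bst2, Isg15, Trim30a and Ifi27l2a. The median log2 fold change was -0.83 for the 38 genes and -0.05 for all genes tested. The numbers that fell and rose were 23 and 6 without unstimulated library 2. Over all single libraries left out they were 22 to 24 and 5 to 7.

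With the inhibitor, 22 of the 38 fell relative to stimulated cells and 4 rose (Ifit1, Ifit2, Ifit3 and Parp14), against 22.8% of all genes that fell and 21.7% that rose in this comparison (edgeR, same threshold). The median log2 fold change was -0.69 for the 38 genes and 0.03 for all genes tested. The number that rose rested on single libraries: it was 2 without inhibitor library 1, 2 without stimulated library 2 and 1 without stimulated library 3. The number that fell also moved, over 20 to 24 when single libraries were left out, with 24 without inhibitor library 1. The summed level of the 38 genes was 1245 ± 15.8 CPM in inhibitor libraries, 1734 ± 117 CPM in stimulated libraries and 2389 ± 96.5 CPM in unstimulated libraries (SD, n = 3 each), with no overlap between the groups. Both comparisons use the same stimulated libraries, so a stimulated library that reads high or low moves a gene in opposite directions in the 2.

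**Figure D2:**
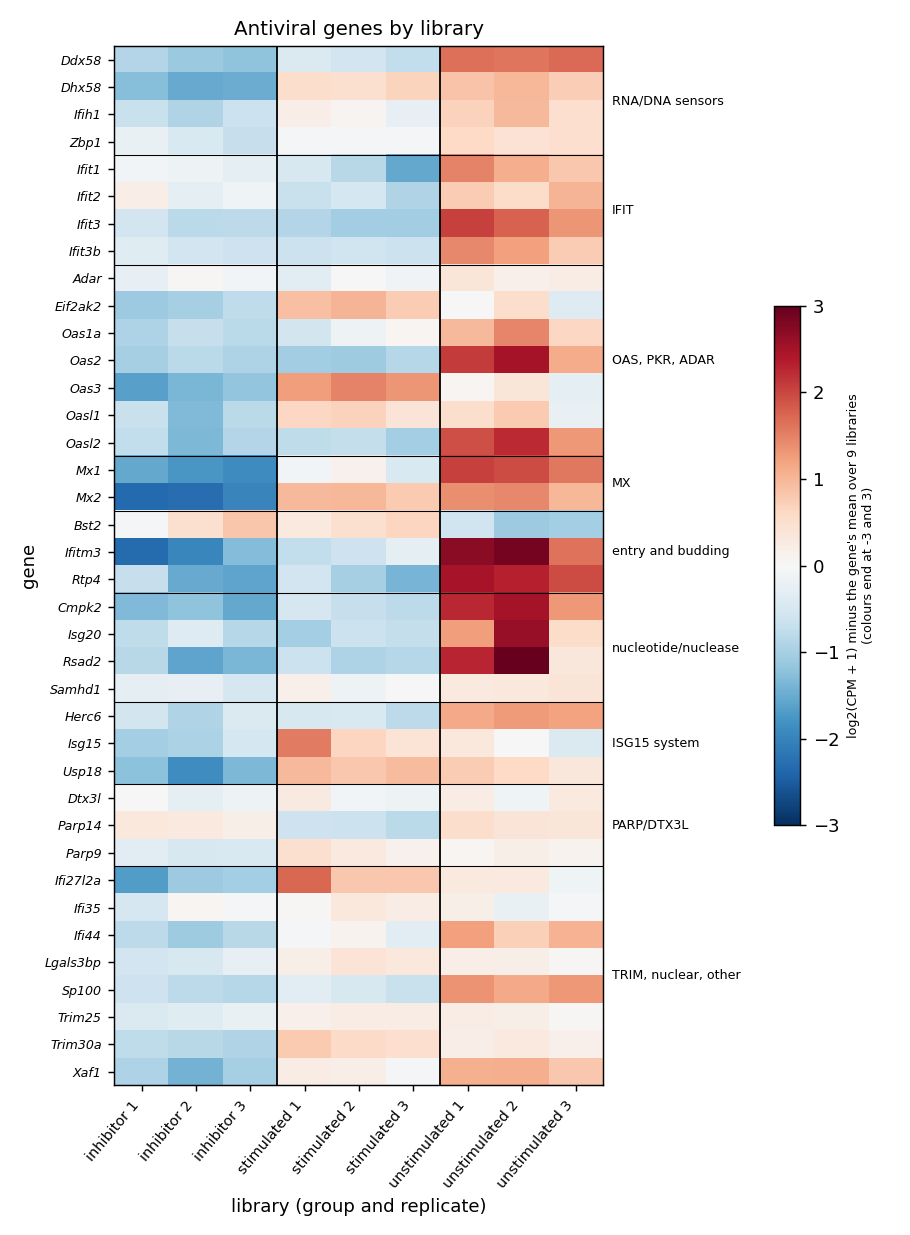
Level of each of the 38 antiviral genes in each of the 9 libraries, as log2(CPM + 1) minus the mean of that gene over all libraries (red above, blue below), with genes grouped by role and inhibitor, stimulated and unstimulated libraries from left to right. Most genes are red in the unstimulated columns and blue in the inhibitor columns, and Bst2 is the one gene that is lower in every unstimulated library than in every other library.

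**Figure D3:**
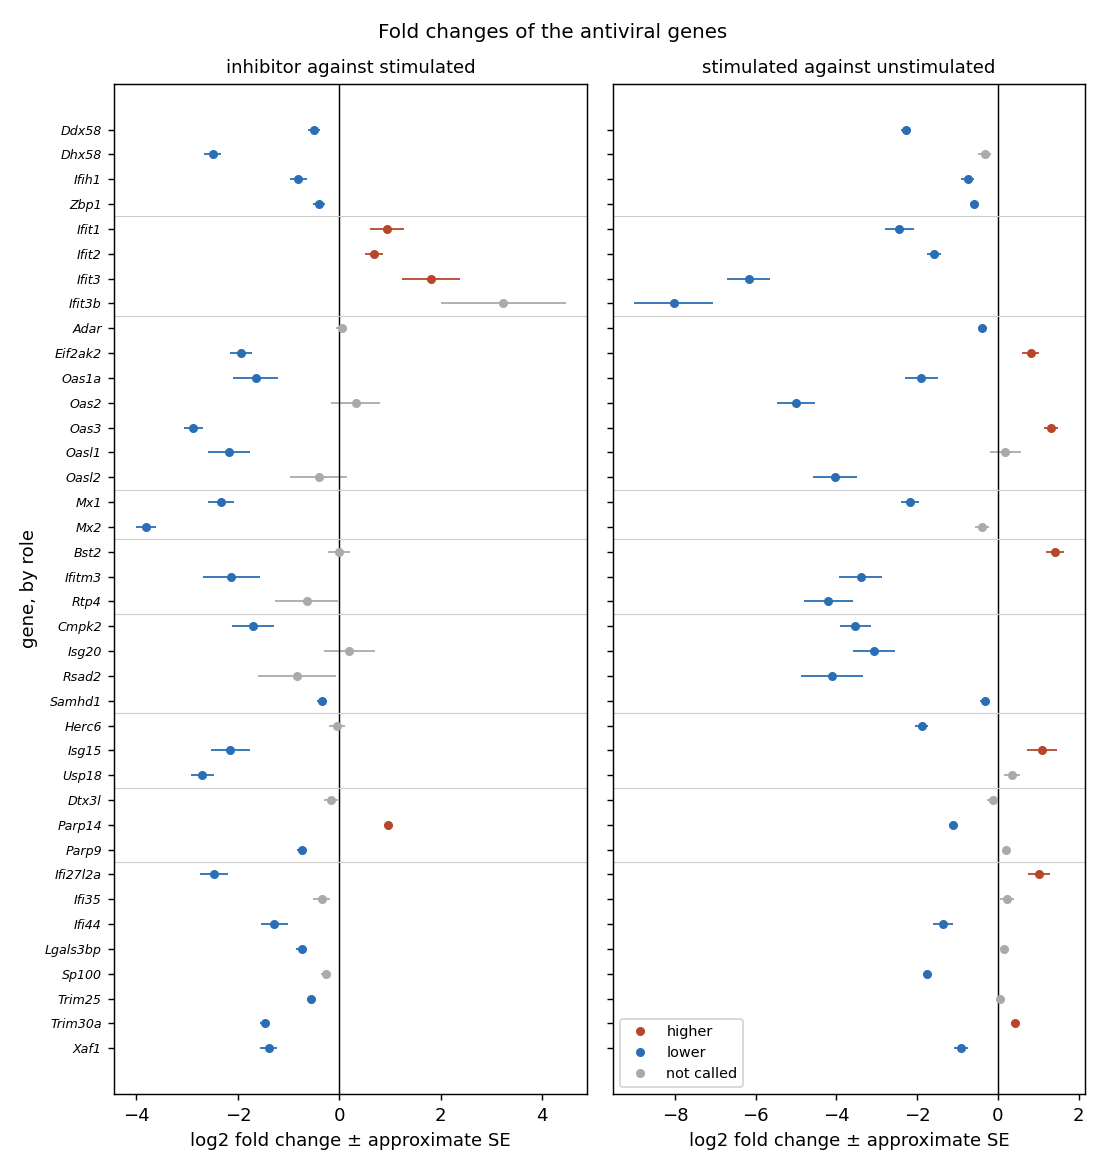
Log2 fold change (point) with approximate SE (bar) of each antiviral gene for inhibitor against stimulated cells (left) and stimulated against unstimulated cells (right), with genes that passed the test coloured by direction and grey for the rest. The x axes of the panels differ in range, and Mx2 at -3.81 on the left and Ifit3b at -8.03 on the right are the lowest points.

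Per kilobase of exon, the levels ran over several orders of magnitude. Ifi27l2a, a small interferon-induced membrane protein gene, was the highest of the 38 in stimulated libraries at 231 ± 92.4 CPM per kb and in unstimulated libraries at 113 ± 18.6 (SD, n = 3 each). In inhibitor libraries it came second at 41.5 ± 10.1 CPM per kb, after Bst2 at 55.8 ± 16.7, a difference within their spread. Samhd1 had rank 3 in each group, with 30.4 ± 2.87 CPM per kb in inhibitor, 38.5 ± 4.21 in stimulated and 48.3 ± 1.41 in unstimulated libraries. Ifit3b was the lowest in inhibitor libraries at 0.0468 ± 0.0537 CPM per kb and in stimulated libraries at 0.00360 ± 0.00624, while Ifi44 was the lowest in unstimulated libraries at 1.13 ± 0.232. On the CPM scale 24 of the 38 genes averaged at least 10 over all libraries and 1 averaged below 1.

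Of the 4 nucleic acid sensors, 3 were lower in stimulated than in unstimulated cells, against 34.0% of all genes tested. All 4 were lower with the inhibitor than in stimulated cells, against 22.8% of all genes. Ddx58, which encodes the RNA sensor RIG-I, was at 17.5, 14.9 and 13.8 CPM in inhibitor libraries 1 to 3, at 24.1, 21.8 and 19.6 in stimulated libraries and at 107, 102 and 109.9 in unstimulated libraries. The unstimulated libraries were tightly grouped far above all cultured ones, and the inhibitor libraries were all below the stimulated ones. Its log2 fold change was -2.28 ± 0.12 for stimulated against unstimulated (edgeR adjusted p = 1.6e-07) and -0.50 ± 0.11 for inhibitor against stimulated (edgeR adjusted p = 0.00495), where ± after a fold change is an approximate SE. Dhx58, which encodes LGP2, a regulator of RIG-I and MDA5 without a signalling domain of its own, behaved differently. It was at 2.06, 1.57 and 1.64 CPM in inhibitor libraries, at 9.68, 9.28 and 10.7 in stimulated libraries and at 12.3, 13.8 and 11.3 in unstimulated libraries. The stimulated and unstimulated ranges lay next to each other without overlap, and the inhibitor libraries were all far lower. The log2 fold change was -0.33 ± 0.16 for stimulated against unstimulated, which did not pass (edgeR adjusted p = 0.0861), and -2.50 ± 0.17 for inhibitor against stimulated (edgeR adjusted p = 4.0e-06). With upper-quartile scaling the first of these was -0.55 and passed (edgeR adjusted p = 0.0133), as it did in DESeq2 (-0.37, adjusted p = 0.0472) and limma voom (-0.32, adjusted p = 0.0492). Ifih1, the gene of the long RNA sensor MDA5, fell by 0.75 ± 0.16 with stimulation and by a further 0.81 ± 0.17 with the inhibitor on the log2 scale (edgeR adjusted p = 0.00248 and 0.00301). Zbp1, a sensor of Z-form nucleic acid that can trigger cell death, fell by 0.58 ± 0.12 and 0.40 ± 0.12 in the same comparisons (edgeR adjusted p = 0.00197 and 0.025). The second call on Zbp1 was lost when any stimulated library or inhibitor library 2 or 3 was left out, at adjusted p up to 0.0798, and was -0.26 with upper-quartile scaling (edgeR adjusted p = 0.177).

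The products of the 4 IFIT genes bind viral RNA that lacks host cap marks and block its translation. All 4 were lower in stimulated than in unstimulated cells, against 34.0% of all genes tested. With the inhibitor 3 of the 4 were higher than in stimulated cells, against 21.7% of all genes. The IFIT genes lie side by side on the plus strand at chr19:34550694-34650009 (mm10, GENCODE M21), in the order Ifit2, Ifit3, Ifit3b and Ifit1. Ifit1 was at 4.93, 4.66 and 4.08 CPM in inhibitor libraries, at 3.47, 2.51 and 1.18 in stimulated libraries and at 16.6, 12.3 and 9.93 in unstimulated libraries. The 3 groups did not overlap, with stimulated libraries lowest and unstimulated ones highest. Its log2 fold change was -2.44 ± 0.35 for stimulated against unstimulated (edgeR adjusted p = 1.6e-04) and 0.94 ± 0.34 for inhibitor against stimulated (edgeR adjusted p = 0.0487). The second value lies at the edge of the threshold: it did not pass without any one of stimulated libraries 2 and 3 or inhibitor libraries 1 to 3, where it was 0.60 to 1.01 with adjusted p up to 0.107. Ifit2 rose by 0.68 ± 0.18 with the inhibitor relative to stimulated cells (edgeR adjusted p = 0.0118), after a fall of 1.58 ± 0.18 with stimulation (edgeR adjusted p = 3.3e-05). In Ifit2 too the groups did not overlap, and its rise missed the threshold without stimulated library 3 (0.57, edgeR adjusted p = 0.0542).

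Ifit3 and Ifit3b, a near-identical pair among which reads may be split or lost in counting, were nearly silent in the cultured cells. Ifit3 was at 0.434, 0.218 and 0.246 CPM in inhibitor libraries, at 0.169, 0.0432 and 0.0379 in stimulated libraries and at 7.84, 6.33 and 4.38 in unstimulated libraries. Its log2 fold change was -6.18 ± 0.54 for stimulated against unstimulated (edgeR adjusted p = 4.5e-06), or -7.16 without stimulated library 1, which was the highest of its group. For inhibitor against stimulated it was 1.80 ± 0.57 (edgeR adjusted p = 0.0274). This value passed neither in limma voom (1.92, adjusted p = 0.146) nor in a fit of the 6 libraries compared alone, without the replicate block (1.82, edgeR adjusted p = 0.0672) or with it (1.99, edgeR adjusted p = 0.0503), nor without stimulated library 2 or 3 or inhibitor library 1, and it was 2.78 without stimulated library 1. Ifit3b had 11 counts over the inhibitor group, 1 over the stimulated group and 325 over the unstimulated group. Its level was 359 times lower in stimulated than in unstimulated cells, with a counting interval (95%) of 64.0 to 1.422e+04, and the inhibitor to stimulated ratio was 12.2, with an interval of 1.78 to 526. The fitted difference between inhibitor and stimulated cells did not pass (edgeR adjusted p = 0.0552), although it did in 4 alternatives. Its fitted value of 3.23 ± 1.23 was 5.03 without stimulated library 2, which held the single count, and 1.85 without inhibitor library 1.

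Another role class holds the OAS family, named for enzymes that make an oligoadenylate messenger that activates RNase L. It also holds the genes of PKR and ADAR, which bind double-stranded RNA. Of its 7 genes, 4 fell with stimulation, 2 rose and 1 did not pass. Among all genes tested 34.0% fell and 32.0% rose, so the share that rose (28.6%) was near that of all genes. Oas2, Oas3 and Oas1a are neighbours on the minus strand at chr5:120730333-120907521, and Oasl2 and Oasl1 on the plus strand at chr5:114896936-114937915 (mm10, GENCODE M21). Oas3 was at 7.10, 8.67 and 10.1 CPM in inhibitor libraries, at 58.7, 69.4 and 62.3 in stimulated libraries and at 25.4, 31.3 and 19.6 in unstimulated libraries. Each stimulated library was above every unstimulated one, and each inhibitor library was below both groups. Oas3 had a log2 fold change of 1.32 ± 0.18 for stimulated against unstimulated (edgeR adjusted p = 1.1e-04), -2.88 ± 0.19 for inhibitor against stimulated (edgeR adjusted p = 3.5e-06) and -1.56 ± 0.18 for inhibitor against unstimulated (edgeR adjusted p = 6.3e-05). Eif2ak2, the gene of the translation-blocking kinase PKR, followed the same order of groups, with log2 fold changes of 0.82 ± 0.21, -1.94 ± 0.22 and -1.12 ± 0.22 in those comparisons (edgeR adjusted p = 0.00643, 8.9e-05 and 0.00159). Oas2 and Oasl2 were almost lost in culture. Oas2 had 0.271, 0.457 and 0.328 CPM in inhibitor libraries and 0.232, 0.216 and 0.398 in stimulated libraries, with overlap, against 9.81, 13.4 and 4.46 in unstimulated libraries. It fell by 5.01 ± 0.47 with stimulation and Oasl2 by 4.03 ± 0.55 (edgeR adjusted p = 7.7e-06 and 1.1e-04), and neither passed with the inhibitor (0.32 ± 0.49 and -0.41 ± 0.57, edgeR adjusted p = 0.633 and 0.592). Oas1a, a member of a tandem family of close copies whose reads may be shared, fell by 1.90 ± 0.41 with stimulation and by a further 1.65 ± 0.45 with the inhibitor (edgeR adjusted p = 0.00229 and 0.0135). The inhibitor value for Oas1a did not pass in limma voom (-1.58, adjusted p = 0.0814) or without stimulated library 3 (-1.35, edgeR adjusted p = 0.0557). Oasl1, known in mice to restrain translation of Irf7, did not pass with stimulation (0.19 ± 0.38, edgeR adjusted p = 0.676) and fell by 2.17 ± 0.41 with the inhibitor (edgeR adjusted p = 0.00178). Adar, the RNA-editing deaminase, was abundant in all groups, fell by 0.39 ± 0.11 with stimulation (edgeR adjusted p = 0.00982) and was at 0.05 ± 0.11 with the inhibitor (edgeR adjusted p = 0.736). It shares 16.8% of its exon bases with Chrnb2 on the opposite strand, and the strand setting of the counting is not given in the sources used here.

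Both genes of the MX family, which encodes dynamin-like GTPases that trap viral nucleoproteins, were very low with the inhibitor. They lie on opposite strands of chromosome 16, at chr16:97447035-97462907 (Mx1) and chr16:97535308-97560900 (Mx2). Mx1 was at 1.33, 1.00 and 0.820 CPM in inhibitor libraries, at 5.37, 6.44 and 3.92 in stimulated libraries and at 27.0, 25.4 and 19.1 in unstimulated libraries. The groups were apart in this stepwise order, with log2 fold changes of -2.18 ± 0.23 for stimulated against unstimulated and -2.33 ± 0.25 for inhibitor against stimulated (edgeR adjusted p = 1.9e-05 and 6.5e-05). C57BL/6 mice are known to carry a defective Mx1 allele, and GENCODE M21 types Mx2 as a polymorphic pseudogene. The counts do not separate the alleles of the cross, so they do not show whether intact protein could be made. Mx2 was at 1.17, 1.22 and 1.76 CPM in inhibitor libraries, at 20.4, 20.6 and 17.7 in stimulated libraries and at 27.5, 28.6 and 20.6 in unstimulated libraries. Stimulated library 2 and unstimulated library 3 lay side by side, and the inhibitor libraries were more than 10 CPM below all others. The log2 fold change of Mx2 for inhibitor against stimulated was -3.81 ± 0.20 (edgeR adjusted p = 1.1e-06), the largest fall of the 38 genes in that comparison. For stimulated against unstimulated it was -0.39 ± 0.17 and did not pass (edgeR adjusted p = 0.0747), while it passed without unstimulated library 3 (-0.51, edgeR adjusted p = 0.0254) and in 6 of the other alternatives, at -0.37 to -0.60.

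**Figure D4:**
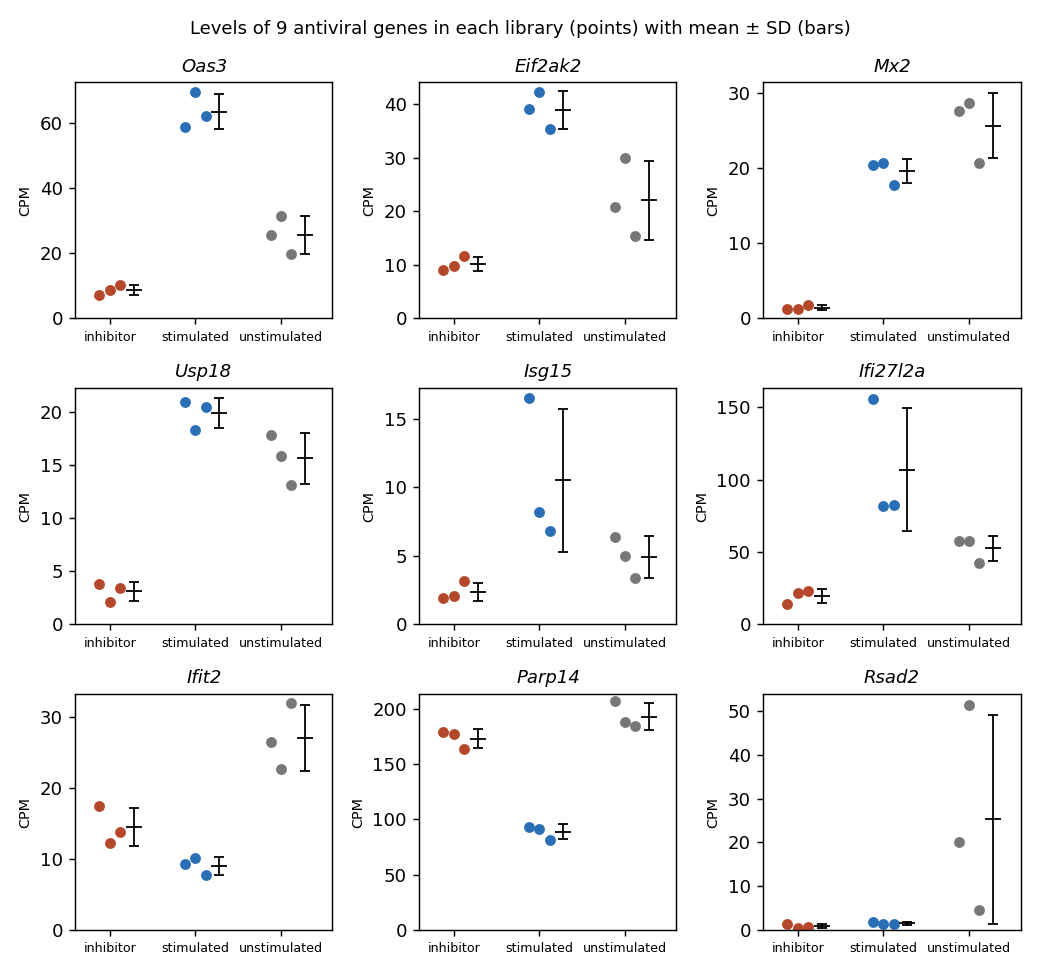
Level (CPM, linear axes that start at 0) of 9 antiviral genes in each library (points) with the mean ± SD of its group (bars, n = 3 each), with inhibitor, stimulated and unstimulated libraries from left to right. Oas3, Eif2ak2, Isg15 and Ifi27l2a are highest in stimulated libraries, Mx2 and Usp18 are lowest in inhibitor libraries by a wide gap, Ifit2 and Parp14 are lowest in stimulated libraries, and Rsad2 is spread over 4.46 to 51.3 CPM among unstimulated libraries.

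The 3 genes that act at membranes each had another pattern. Ifitm3, whose product stops viruses from fusing with endosomes, was at 0.163, 0.479 and 1.35 CPM in inhibitor libraries, at 2.45, 2.77 and 3.79 in stimulated libraries and at 36.9, 41.6 and 16.9 in unstimulated libraries. The 3 groups were apart, although inhibitor library 3 was well above the other inhibitor libraries. The log2 fold change of Ifitm3 was -3.40 ± 0.53 for stimulated against unstimulated (edgeR adjusted p = 2.5e-04) and -2.13 ± 0.56 for inhibitor against stimulated (edgeR adjusted p = 0.0117). The inhibitor value was -3.17 without inhibitor library 3 (edgeR adjusted p = 0.00182) and did not pass in limma voom (-2.49, adjusted p = 0.083). Rtp4, an interferon-induced chaperone of receptors, was at 1.30, 0.305 and 0.246 CPM in inhibitor libraries, at 1.52, 0.865 and 0.417 in stimulated libraries and at 19.9, 17.9 and 13.6 in unstimulated libraries. The cultured groups overlapped. Rtp4 shares 13.9% of its exon bases with Gm45338 on the same strand, so some of its reads may be shared or lost in counting. Rtp4 fell by 4.20 ± 0.60 with stimulation (edgeR adjusted p = 1.5e-04), and its change with the inhibitor of -0.64 ± 0.62 did not pass (edgeR adjusted p = 0.431) but was -1.75 without inhibitor library 1 (edgeR adjusted p = 0.0259). Bst2, which encodes tetherin, a protein that holds budding virus at the cell surface, was the one gene higher in both cultured groups. It was at 35.3, 50.4 and 65.4 CPM in inhibitor libraries, at 44.8, 50.8 and 57.1 in stimulated libraries and at 23.4, 16.4 and 17.4 in unstimulated libraries. Bst2 had a log2 fold change of 1.42 ± 0.22 for stimulated against unstimulated (edgeR adjusted p = 2.6e-04) and -0.01 ± 0.22 for inhibitor against stimulated (edgeR adjusted p = 0.967).

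The 4 genes that act on nucleotides or nucleic acids were all lower in stimulated than in unstimulated cells, against 34.0% of all genes tested. Rsad2, the gene of viperin, which makes a chain-terminating nucleotide, was at 1.41, 0.436 and 0.677 CPM in inhibitor libraries, at 1.75, 1.28 and 1.37 in stimulated libraries and at 20.02, 51.3 and 4.46 in unstimulated libraries. The unstimulated libraries differed more among themselves than inhibitor and stimulated libraries did from each other. Unstimulated library 2, the highest for Rsad2, also had the highest summed neutrophil (2360 CPM), B cell (3078 CPM) and myeloid markers (2704 CPM). Library 3, the lowest for Rsad2, had the lowest of each (435, 1049 and 1388 CPM). T cell, NK cell and plasmacytoid dendritic cell markers had another order. The order of Rsad2 held for Isg20 and other antiviral genes, among them Cmpk2, Oas2 and Ifitm3, but not for all, such as Ifit1. A link between these markers and the antiviral genes was not tested. The log2 fold change of Rsad2 was -4.11 ± 0.76 for stimulated against unstimulated (edgeR adjusted p = 8.6e-04), or -3.06 without unstimulated library 2 (edgeR adjusted p = 0.00116). It was -0.83 ± 0.77 for inhibitor against stimulated (edgeR adjusted p = 0.417), or -0.87 with no filter on low counts, which passed (edgeR adjusted p = 0.0428). Cmpk2, a mitochondrial nucleotide kinase gene next to Rsad2 in chr12:26442746-26479837, was at 0.407, 0.523 and 0.205 CPM in inhibitor libraries, at 1.46, 1.19 and 1.02 in stimulated libraries and at 15.8, 18.9 and 7.68 in unstimulated libraries. Its groups did not overlap, and it fell by 3.53 ± 0.39 with stimulation and by a further 1.70 ± 0.42 with the inhibitor (edgeR adjusted p = 2.3e-05 and 0.00834), the second of which did not pass in limma voom (adjusted p = 0.155). Isg20, an exonuclease gene, fell by 3.08 ± 0.52 with stimulation (edgeR adjusted p = 4.3e-04), or by 2.23 without unstimulated library 2, and was at 0.20 ± 0.50 with the inhibitor (edgeR adjusted p = 0.772). Samhd1, the dNTP hydrolase that limits retroviruses, fell by 0.33 ± 0.10 with stimulation and by 0.34 ± 0.10 with the inhibitor (edgeR adjusted p = 0.0139 and 0.0183). Those small changes did not pass without stimulated library 2 in the first case and without stimulated library 1 or inhibitor library 3 in the second, where the values were -0.26 to -0.27, nor did the second with upper-quartile scaling (-0.20, edgeR adjusted p = 0.17).

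The ISG15 system consists of a ubiquitin-like modifier, its ligase and the protease that removes it. Usp18, the protease and a brake on the type I interferon receptor, was at 3.74, 2.07 and 3.38 CPM in inhibitor libraries, at 20.9, 18.3 and 20.4 in stimulated libraries and at 17.8, 15.9 and 13.1 in unstimulated libraries. The inhibitor libraries were all far below the others, which lay next to each other without overlap. The log2 fold change of Usp18 was -2.70 ± 0.22 for inhibitor against stimulated (edgeR adjusted p = 1.1e-05) and 0.35 ± 0.20 for stimulated against unstimulated (edgeR adjusted p = 0.151). Herc6, the main ISG15 ligase of mice, was at 9.08, 6.86 and 10.0 CPM in inhibitor libraries, at 9.59, 9.79 and 7.55 in stimulated libraries and at 31.8, 34.8 and 33.02 in unstimulated libraries. The cultured groups overlapped, with -0.05 ± 0.16 between them (edgeR adjusted p = 0.813). Stimulated cells were 1.89 ± 0.16 below unstimulated ones (edgeR adjusted p = 4.4e-06, log2 fold change -1.89). Herc6 shares 13.7% of its exon bases with Gm45193 on the same strand, so some of its reads may be shared or lost in counting. Isg15 itself, given in full after its values were seen, was at 1.90, 2.05 and 3.12 CPM in inhibitor libraries, at 16.5, 8.22 and 6.81 in stimulated libraries and at 6.39, 4.97 and 3.34 in unstimulated libraries. Stimulated library 1 was far above the other stimulated libraries, and the groups did not overlap. Isg15 fell by 2.15 ± 0.38 with the inhibitor (edgeR adjusted p = 0.0013) and rose by 1.10 ± 0.37 with stimulation (edgeR adjusted p = 0.0225). The rise did not pass without stimulated library 1 (0.62, edgeR adjusted p = 0.117) or unstimulated library 3 (0.89, edgeR adjusted p = 0.0724).

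The ADP-ribosylation genes Parp9, Parp14 and Dtx3l were abundant in all groups. Parp14, an ADP-ribosyltransferase that also shapes STAT6 responses, was at 179, 177 and 163 CPM in inhibitor libraries, at 93.6, 91.8 and 80.9 in stimulated libraries and at 207, 188 and 185 in unstimulated libraries. Every stimulated library was below every inhibitor and unstimulated library. Parp14 had a log2 fold change of -1.12 ± 0.08 for stimulated against unstimulated (edgeR adjusted p = 1.7e-06), 0.96 ± 0.08 for inhibitor against stimulated (edgeR adjusted p = 1.7e-05) and -0.16 ± 0.08 for inhibitor against unstimulated (edgeR adjusted p = 0.138). Parp9 and Dtx3l, partners in an ubiquitin ligase complex, lie head to head next to Parp14 within chr16:35832874-35972605 and share 9.40% and 8% of their exon bases. Parp9 did not pass with stimulation (0.20 ± 0.10, edgeR adjusted p = 0.106), except without stimulated library 3 (0.29, edgeR adjusted p = 0.0327), and fell by 0.74 ± 0.10 with the inhibitor (edgeR adjusted p = 2.7e-04). Dtx3l passed in neither comparison, at -0.12 ± 0.14 and -0.16 ± 0.14 (edgeR adjusted p = 0.454 and 0.387).

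The last 8 genes encode TRIM and nuclear body proteins and other interferon-induced factors. With the inhibitor 6 of them fell, against 22.8% of all genes tested, and 2 did not pass. Ifi27l2a was at 13.8, 21.3 and 22.5 CPM in inhibitor libraries, at 156, 82.1 and 82.3 in stimulated libraries and at 57.4, 57.6 and 42.6 in unstimulated libraries. The groups did not overlap, and stimulated library 1 was far above the other stimulated libraries, as it was for Isg15. Its log2 fold change was 1.03 ± 0.27 for stimulated against unstimulated (edgeR adjusted p = 0.0069) and -2.47 ± 0.28 for inhibitor against stimulated (edgeR adjusted p = 9.2e-05). Sp100, a scaffold of nuclear bodies that silence viral DNA, was at 112, 100.3 and 94.8 CPM in inhibitor libraries, at 136, 124 and 109 in stimulated libraries and at 441, 384 and 428 in unstimulated libraries. It fell by 1.76 ± 0.10 with stimulation (edgeR adjusted p = 3.6e-07). The cultured groups overlapped, and the inhibitor value of -0.27 ± 0.10 missed the threshold (edgeR adjusted p = 0.055) but passed with the replicate block (-0.26, edgeR adjusted p = 0.0384), in DESeq2 (-0.27, adjusted p = 0.0425), with no filter on low counts, and without stimulated library 3 or inhibitor library 1.

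Of the other 6, Trim30a, a mouse TRIM gene in a cluster of close copies, rose by 0.42 ± 0.09 with stimulation (edgeR adjusted p = 0.0019) and fell by 1.47 ± 0.09 with the inhibitor (edgeR adjusted p = 2.0e-06). Its rise was 0.20 with upper-quartile scaling and did not pass (edgeR adjusted p = 0.098). Xaf1, a gene linked to apoptosis, fell by 0.92 ± 0.17 with stimulation and 1.39 ± 0.17 with the inhibitor (edgeR adjusted p = 7.5e-04 and 1.5e-04), and Ifi44 by 1.35 ± 0.25 and 1.28 ± 0.26 (edgeR adjusted p = 9.0e-04 and 0.00305). Trim25, the ubiquitin ligase that assists RIG-I, and Lgals3bp, a secreted glycoprotein gene, passed with the inhibitor alone. They fell there by 0.55 ± 0.08 and 0.74 ± 0.11 (edgeR adjusted p = 4.7e-04 and 3.6e-04), and with stimulation were at 0.05 ± 0.08 and 0.16 ± 0.11 (edgeR adjusted p = 0.594 and 0.195). Ifi35, which shares 16.8% of its exon bases with the antisense gene Gm11626, passed in neither comparison (0.23 ± 0.17 and -0.35 ± 0.17, edgeR adjusted p = 0.252 and 0.116). In the 6 libraries compared, with the replicate block, its inhibitor value was again -0.35 and passed (edgeR adjusted p = 0.0198).

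Set against unstimulated cells, inhibitor cells had lower levels of 34 of the 38 genes, against 26.1% of all genes tested, and a higher level of 1, Bst2 at 1.40 ± 0.22 (edgeR adjusted p = 4.2e-04), against 26.3% of all genes. The genes that did not pass were Parp14, Dtx3l and Ifi35. Parp14 did pass when only genes of at least 10 CPM on average were kept (-0.30, edgeR adjusted p = 0.0142). Dtx3l passed in 3 alternatives, at -0.31 to -0.42 (edgeR adjusted p up to 0.0393). The median log2 fold change was -1.96 for the 38 genes and 0.00 for all genes tested. The lowest values were those of Ifitm3 (-5.53 ± 0.60, edgeR adjusted p = 3.7e-05), Cmpk2 (-5.22 ± 0.44, edgeR adjusted p = 6.3e-06) and Rsad2 (-4.93 ± 0.81, edgeR adjusted p = 5.7e-04). Single libraries moved this order: Ifitm3 was -6.57 without inhibitor library 3, Rsad2 was -3.89 without unstimulated library 2, and Rtp4, at -4.84 ± 0.63 (edgeR adjusted p = 1.3e-04), was -5.94 without inhibitor library 1. Isg20, at -2.88 ± 0.51 (edgeR adjusted p = 9.3e-04), was -2.03 without unstimulated library 2, and Ifit3b, at a fitted -4.80 ± 0.74 (edgeR adjusted p = 3.8e-04), was -6.18 without inhibitor library 1. Isg15 was lower by a log2 fold change of -1.05 ± 0.38 (edgeR adjusted p = 0.0379), which missed the threshold in 6 alternatives with adjusted p up to 0.134, among them those without unstimulated library 1 or 2 or inhibitor library 1 or 2. Adar at -0.34 ± 0.11 (edgeR adjusted p = 0.0245) missed it without unstimulated library 1 or inhibitor library 1 or 3, at -0.26 to -0.35. Myeloid markers were also lower in inhibitor than in unstimulated cells for 21 of 22 genes, as were all 11 neutrophil, 14 of 15 B cell and all 11 NK cell markers, and their part in this comparison was not tested.

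Genes with the ISRE core in the promoter window moved in both directions. Of the 13 with the core, 5 rose and 8 fell with stimulation, and 2 rose and 8 fell with the inhibitor. Of the 15 with a window but no core, 0 rose and 10 fell with stimulation, and 1 rose and 7 fell with the inhibitor. Among all genes tested, 32.0% rose and 34.0% fell with stimulation, and 21.7% rose and 22.8% fell with the inhibitor. The 5 that rose with stimulation were Oas3, Eif2ak2, Bst2, Isg15 and Trim30a. The promoter stretches of Oas3 and Isg15 shown above thus belong to genes that were highest in stimulated cells, that of Bst2 to a gene lowest in unstimulated cells, and those of Ddx58, Ifit1, Ifitm3 and Rsad2 to genes that were highest in unstimulated cells. These counts are a description and were not tested.

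The rest of the interferon pathway was read from lists of ligands, receptors, signalling genes and other inducible families. Among all genes tested, 32.0% rose and 34.0% fell with stimulation, and 21.7% rose and 22.8% fell with the inhibitor. Of 10 ligand genes listed, 9 were of type I or type III interferon (Ifna1, Ifna2, Ifna4, Ifna5, Ifnb1, Ifne, Ifnk, Ifnl2 and Ifnl3). These had at most 0.325 CPM in any library and were too low to test. Other Ifna genes were not in the list. Ifng, type II interferon, was at 111, 103 and 162 CPM in inhibitor libraries, at 223, 283 and 275 in stimulated libraries and at 14.1, 12.4 and 9.59 in unstimulated libraries. It rose by 4.44 ± 0.22 with stimulation and fell by 1.05 ± 0.19 with the inhibitor relative to stimulated cells (edgeR adjusted p = 1.2e-07 and 0.00138). All 6 receptor genes fell with stimulation, and with the inhibitor 3 rose, led by Ifnlr1 at 3.20 ± 0.63 (edgeR adjusted p = 0.00238), and 1 fell (Ifngr1 at -0.52 ± 0.10, edgeR adjusted p = 0.00213).

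Of the 10 JAK, STAT and IRF genes, 3 rose (Jak2, Stat2 and Irf8) and 7 fell with stimulation, and 6 rose and 3 fell with the inhibitor. The share that rose with stimulation (30.0%) was near that of all genes (32.0%). Irf9 rose by 0.64 ± 0.11 with the inhibitor, whereas Stat2, its partner in the ISRE-binding complex, fell by 0.92 ± 0.12 (edgeR adjusted p = 0.00107 and 1.8e-04). Irf1 rose by 1.93 ± 0.12 and Irf2 by 1.11 ± 0.08 (edgeR adjusted p = 3.1e-06 and 4.7e-06), while Irf7, the factor that amplifies type I interferon, fell by 1.66 ± 0.20 (edgeR adjusted p = 1.1e-04). Jak1 and Tyk2 rose by 0.40 ± 0.12 and 0.41 ± 0.10, and Jak2 fell by 0.59 ± 0.08 (edgeR adjusted p = 0.0218, 0.0063 and 3.1e-04). The call on Jak1 was lost without stimulated library 2 or 3 or inhibitor library 1 or 2, at 0.35 to 0.39. Among 8 brakes on the pathway, 4 rose and 3 fell with the inhibitor, and the 2 largest falls were Socs3 at -3.47 ± 0.11 and Socs1 at -1.66 ± 0.24 (edgeR adjusted p = 1.4e-07 and 3.9e-04). Of 11 tested genes of nucleic acid sensing, 4 rose and 6 fell with stimulation (36.4% and 54.5%, against 32.0% and 34.0% of all genes). With the inhibitor 5 of them rose and 2 fell (45.5% and 18.2%, against 21.7% and 22.8% of all genes).

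Other interferon-inducible families stood in the opposite direction to most of the 38 genes in the inhibitor comparison. Of 14 guanylate-binding protein and immunity-related GTPase genes, 13 rose and 0 fell with the inhibitor, with a median log2 fold change of 1.62. The largest changes were Tgtp2 at 2.84 ± 0.85, a gene at or below 1 CPM in every library, and Iigp1 at 2.76 ± 0.32 (edgeR adjusted p = 0.021 and 9.5e-05). The call on Tgtp2 was lost without stimulated library 2 or inhibitor library 2 (2.75 in both cases), and its value was 4.02 without stimulated library 1 and 2.25 without stimulated library 3. Of 10 genes of the p200 family of DNA sensors, 7 rose and 0 fell with the inhibitor (median 1.59), led by Mndal at 3.53 ± 0.27 and Ifi203 at 3.33 ± 0.15 (edgeR adjusted p = 7.7e-06 and 5.2e-07). Ifi208 and Ifi213 were low in culture, at means of 0.35 and 0.78 CPM in inhibitor and 0.11 and 0.31 CPM in stimulated libraries. Their calls were lost in limma voom (adjusted p = 0.27 and 0.114). They were also lost in the 6 libraries compared with the replicate block (edgeR adjusted p = 0.0844 and 0.0672). With stimulation all 10 of that family fell, with a median of -5.70. In inhibitor against unstimulated cells 9 of them were lower, against 26.1% of all genes. Of the GTPase genes 3 rose and 8 fell with stimulation (21.4% and 57.1%, against 32.0% and 34.0% of all genes). Genes listed as markers of other cells also moved with the inhibitor. Of these, 10 of 22 myeloid, 7 of 15 B cell and 5 of 8 plasmacytoid dendritic cell markers rose, and 10 of 11 NK cell markers fell. Among all genes tested, 21.7% rose and 22.8% fell with the inhibitor. The difference between these families and the antiviral genes was not tested, nor was the part of other cells in it.

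**Figure D5:**
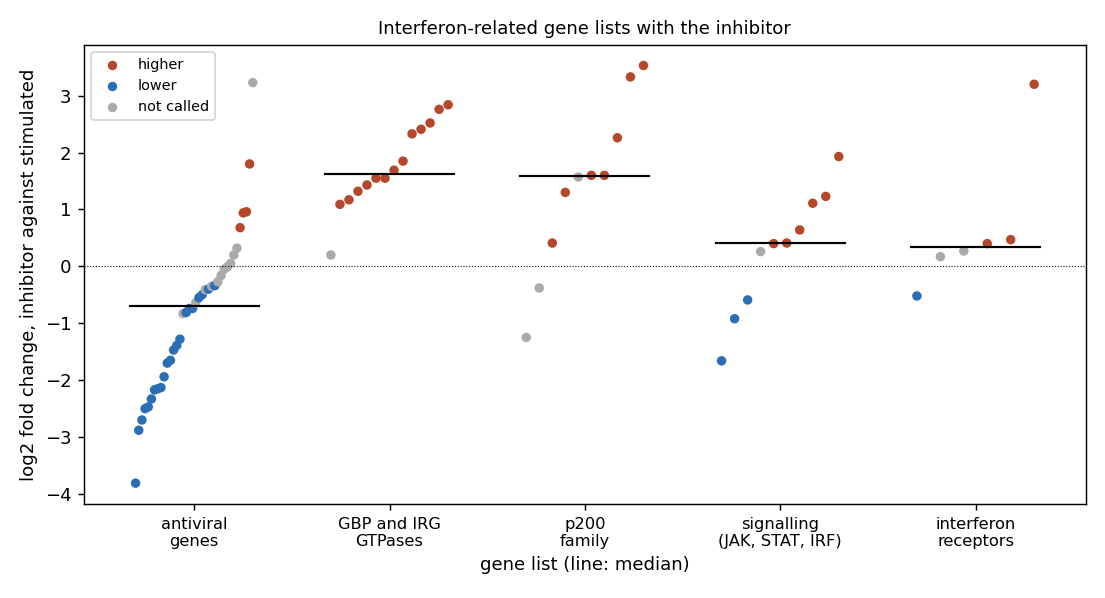
Log2 fold change of inhibitor against stimulated cells for each tested gene of 5 interferon-related lists (points, sorted within a list, coloured by call in edgeR's test), with the median of each list as a line. The antiviral genes have a median of -0.69, the guanylate-binding and immunity-related GTPases 1.62 and the p200 family 1.59.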

How the data were processed

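Counts of reads per gene were deposited by the authors as 1 table of whole numbers; per the submitters' processing notes, STAR 2.7.1a, featureCounts and the mm10 build were used. The kit kept strand and depleted ribosomal RNA, per the labels' protocols. The release of the annotation, the strand option of the counting and the treatment of mates were not given in the sources used here. Of counts from 1 to 10, 70.6% to 78.5% were even, so a fragment may largely count as 2 and counting intervals, which cover counting error only, would be too narrow. Reads of castaneus alleles may align less well to a C57BL/6 reference. GENCODE M21 named 49412 of 49671 identifiers (259 unmatched); 0 columns were unused.

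Genes were kept with filterByExpr and scaled by TMM. They were tested two-sided in 1 quasi-likelihood fit of all 9 libraries by group (edgeR 4.0.16, R 4.3.3), with Benjamini-Hochberg adjustment over 18374 genes. The steps were also run on simulated counts with far fewer changed genes than were called here, so that run gives no error rate for these data. An approximate SE is the absolute log2 fold change divided by the root of F. Alternatives were DESeq2 1.42.0, limma 3.58.1 voom, other scalings and filters, only the 6 libraries compared, a replicate block and leaving out each library. Replicate numbers were taken to pair inhibitor and stimulated libraries, since same-numbered libraries deviated together (correlations 0.149, 0.147 and 0.115), but not unstimulated ones (-0.248 to -0.204 with inhibitor, -0.0322 to 0.00331 with stimulated libraries). Differently numbered inhibitor and stimulated libraries had -0.117 to 0.00115. Differently numbered inhibitor and unstimulated libraries reached 0.164, so correlations of this size cannot establish the pairing.

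The genes and lists were chosen with earlier results of these data known. Values in every library are given, in each role class, for the genes of at least 5 CPM with the largest called change in each of the first and second comparison; Oas2, Bst2, Isg15 and Ifit3 were added after their values were seen. Cgas was listed under an older name, and 2 p200 symbols absent from GENCODE M21 were dropped. Values of 1 signalling gene are not reported here.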

Additional observations from a re-analysis of the deposited data

How the results depend on the processing

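Each comparison was recomputed under 14 alternatives (15 for inhibitor against stimulated), of which the replicate block in the 6 libraries compared was chosen after seeing the data. Keeping only genes of at least 10 CPM on average tested 8948 of 18374 genes and 24 of the 38 antiviral genes, and so gave fewer calls. For stimulated against unstimulated it gave 3463 genes higher and 3488 lower of 8948, and 13 antiviral genes lower of 24. For inhibitor against stimulated it gave 2 antiviral genes higher of 24. For inhibitor against unstimulated it gave 2947 genes higher and 2920 lower of 8948, and 22 antiviral genes lower of 24. Leaving out 1 library at a time gave 1 to 4 antiviral genes higher and 20 to 24 lower for inhibitor against stimulated, 5 to 7 higher and 22 to 24 lower for stimulated against unstimulated, and 1 higher and 32 to 34 lower for inhibitor against unstimulated. With the replicate block, 4 antiviral genes were higher and 23 lower for inhibitor against stimulated, and 3 and 24 of 37 tested in the 6 libraries compared; the block changed the call on Sp100 in both fits, on Ifi35 in the fit of 6 libraries and, for inhibitor against unstimulated, on Isg15 (-0.97, edgeR adjusted p = 0.0593).

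The changes of sign among the 38 genes (7 for stimulated against unstimulated, 10 for inhibitor against stimulated, 1 for inhibitor against unstimulated) were all of values that passed under neither setting. For stimulated against unstimulated, upper-quartile scaling, which moved the median of all genes to -0.27, gave -0.03 for Oasl1, -0.02 for Parp9, -0.17 for Trim25 and -0.06 for Lgals3bp; the 10 CPM minimum gave -0.13 for Trim25 and -0.02 for Lgals3bp; and Oasl1 ranged over -0.10 to 0.46 when single libraries were left out, with the lowest value without unstimulated library 3. For inhibitor against stimulated, upper-quartile scaling gave 0.11 for Bst2 and 0.08 for Herc6, and the 10 CPM minimum 0.02 for Bst2. When single libraries were left out there, Bst2 ranged over -0.25 to 0.19 (above 0 without stimulated library 3, at 0.07, or inhibitor library 1), Adar over -0.04 to 0.13 (below 0 without stimulated library 1 or, at -0.03, inhibitor library 2), Oasl2 over -0.88 to 0.07, Isg20 over -0.04 to 0.33 and Herc6 over -0.18 to 0.08, the last 3 changing sign without inhibitor library 2. For inhibitor against unstimulated, Ifi35 ranged over -0.24 to 0.04, above 0 without inhibitor library 1. The cause of these changes was not tested. Depth limits Ifit3b and Ifit3 in cultured cells, where 3 counts over a group correspond to 0.0225 CPM in inhibitor and 0.0192 CPM in stimulated libraries.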
